A study of Mus musculus with 12 samples.

Results

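YY1 binding far from genes was examined in Lin- bone marrow cells. Peaks of 4 YY1 ChIP-seq libraries were merged where they shared at least 1 bp, which gave 19768 regions. Of these, 10332 lay on autosomes and held a peak in at least 1 replicate 1 and at least 1 replicate 2 library. The intergenic TSS-distal sites described here are the 880 of those regions that lay more than 3 kb from every annotated transcript start and touched no protein-coding gene body (GENCODE M21, mm10). The other regions with peaks in both replicate numbers were 609 intragenic distal sites, which overlap a protein-coding gene body, and 8843 TSS-proximal regions. The sites were thus chosen by the presence of YY1 peaks in these same libraries, so counts of libraries with a peak are given as a description, without a test.

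Lin- cells are what is left of bone marrow once cells carrying antigens of mature blood lineages have been depleted, so they are enriched in stem and progenitor cells. All mice were 3-month-old females of the 129Sv4/Jae x B6 strain. The WT group had 2 libraries. The XistΔ/Δ group also had 2, from mice whose floxed Xist alleles (2lox) were recombined by Vav-iCre, a Cre transgene under Vav1 regulatory sequence that is active in blood cells. The sources used here do not say whether WT mice carried the transgene, nor how many animals went into a library, and peak lists give no check of the deletion. The series has 12 samples, and the 8 histone-mark samples were not analysed here. Of the genes that mark stem and progenitor cells, 12 of 16 had a region with peaks in at least 2 libraries within 3 kb of a start, against 0 of 9 genes of cells outside blood and 48.3% of all 20807 autosomal protein-coding genes.

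The libraries differed in depth by replicate number. Replicate 1 libraries had 24.9 M tags (aligned reads) in WT and 23.1 M tags in XistΔ/Δ, and replicate 2 libraries had 50.0 M and 59.5 M tags. They held 9553, 10075, 15933 and 18113 peaks in that order. No input library was named in the peak calls, so no control level stands beside the peaks. Every peak has the same deposited score of 1, and peak width was therefore the main graded measure. The order of peaks in the deposited lists was used as an alternative.

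YY1 is a ubiquitous zinc-finger protein that binds promoters and enhancers and can hold such elements together by forming dimers. Its known recognition sequence is built around the letters CCAT, which read ATGG on the opposite strand. CTCF is the zinc-finger protein that, with cohesin, anchors chromatin loops. PU.1 is the ETS-family factor of myeloid and lymphoid progenitors, and SP/KLF proteins bind GC-rich boxes in CpG islands.

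Among the named sites, the following windows hold the sequences that the motif counts below rest on, read from the mm10 genome (GRCm38) and written 5′ to 3′. Both strands were searched for CCATNTT (YY1 core) and AANATGGCG (YY1 long form), and all 45 sites with the long form also held a core. The first pair carries the long form, in capitals, near the centre of a site assigned to Id2 (chr12:25255037-25255135, minus strand) and of 1 assigned to Runx1 (chr16:93031661-93031759, plus strand). Id2 is an inhibitor of E-protein transcription factors and Runx1 is a master regulator of blood stem cell emergence.
Id2 site: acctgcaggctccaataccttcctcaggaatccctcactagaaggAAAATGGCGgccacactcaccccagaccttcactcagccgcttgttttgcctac
Runx1 site: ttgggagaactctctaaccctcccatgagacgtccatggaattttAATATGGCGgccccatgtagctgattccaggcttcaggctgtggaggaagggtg

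Other sites held several cores within a short stretch, shown here because they are the sites with the most core matches (capitals mark the core, plus strand). The site assigned to Adra2a (chr19:54285614-54285868) and the site assigned to Myoc (chr1:162615615-162615855) had 6 cores each, and the site assigned to Cdkn2aipnl (chr11:51938470-51938558) was 1 of 8 with 4. At Adra2a, 5 of the 6 cores sit in copies of a short tandem unit. At Myoc the stretch that holds the first cores recurs, with small differences, as the stretch that holds the last ones.
Adra2a site: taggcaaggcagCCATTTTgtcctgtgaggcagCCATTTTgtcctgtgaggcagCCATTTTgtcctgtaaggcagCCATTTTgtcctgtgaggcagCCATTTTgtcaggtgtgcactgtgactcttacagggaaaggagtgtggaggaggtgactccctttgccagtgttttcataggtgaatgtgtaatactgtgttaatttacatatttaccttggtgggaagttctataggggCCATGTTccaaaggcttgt
Myoc site: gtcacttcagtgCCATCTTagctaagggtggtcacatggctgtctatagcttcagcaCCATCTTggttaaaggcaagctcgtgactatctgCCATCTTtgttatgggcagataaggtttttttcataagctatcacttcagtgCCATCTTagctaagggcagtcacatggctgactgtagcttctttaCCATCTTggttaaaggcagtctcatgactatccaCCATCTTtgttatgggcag
Cdkn2aipnl site: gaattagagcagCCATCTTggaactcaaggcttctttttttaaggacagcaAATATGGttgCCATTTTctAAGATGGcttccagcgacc

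The next pair combines a YY1 core with the PU.1 letters GAGGAAGT (capitals mark both, plus strand). This stretch of each site was chosen after the values were seen. The genes are Myb (chr10:21222020-21222112), a transcription factor that keeps progenitors dividing, and Cebpa (chr7:35151024-35151077), the factor that commits progenitors to the granulocyte fate. In the Myb site a core on the minus strand shares its last letter with the PU.1 match, so that the last capital run holds both.
Myb site: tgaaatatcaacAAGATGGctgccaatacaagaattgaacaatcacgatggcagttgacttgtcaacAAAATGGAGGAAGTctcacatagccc
Cebpa site: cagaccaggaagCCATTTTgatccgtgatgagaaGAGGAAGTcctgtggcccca

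The last set shows CTCF matches in capitals, at sites assigned to Yy1 itself (chr12:108757975-108758076, minus strand), Tex44 (chr1:86442012-86442113, plus strand) and Rnase12 (chr14:51063455-51063556, minus strand). The Tex44 and Rnase12 sites are among the 10 with the highest mean width percentile.
Yy1 site: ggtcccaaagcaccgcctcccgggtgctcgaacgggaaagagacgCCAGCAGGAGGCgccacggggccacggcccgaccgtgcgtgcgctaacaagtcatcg
Tex44 site: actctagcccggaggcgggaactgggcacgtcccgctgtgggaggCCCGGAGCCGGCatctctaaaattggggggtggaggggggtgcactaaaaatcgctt
Rnase12 site: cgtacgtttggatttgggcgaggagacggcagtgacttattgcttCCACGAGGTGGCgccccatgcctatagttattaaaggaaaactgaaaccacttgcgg

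YY1 letters were concentrated at the centres of the sites. The YY1 core occurred in 404 of the 880 central windows of 500 bp (45.9%, 95% Wilson interval 42.6% to 49.2%). Windows of the same length placed 5 kb to either side held it in 33.6% (31.4% to 35.8%, 1760 windows). The long form was rarer and more concentrated, with 45 sites (5.11%, 3.84% to 6.77%) against 0.739% of the side windows (0.432% to 1.26%). These intervals cover counting error only, and sites are not replicates of a condition. No core was found in 476 sites, 296 sites had 1, 74 had 2, 24 had 3, 8 had 4 and 2 had 6.

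By share of windows, the core was more frequent at these sites than at promoters, and the long form was less frequent. TSS-proximal regions held a core in 27.3% (26.4% to 28.2%) of central windows and the long form in 9.19% (8.61% to 9.81%). Windows 5 kb beside the TSS-proximal regions held them in 30.8% and 0.701%. Median GC content differed too, 64.6% in TSS-proximal and 49.2% in intergenic central windows, and the shares were not adjusted for it. Intragenic distal sites resembled the intergenic ones, with 51.7% (47.8% to 55.7%) for the core and 4.60% (3.20% to 6.56%) for the long form. The intervals for the core and for the long form overlap between both kinds of distal sites and not between intergenic sites and promoters.

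PU.1 letters stood out among those of blood-cell factors. They occurred in 127 sites (14.4%, 12.3% to 16.9%), against 3.07% (2.36% to 3.98%) of side windows and 4.56% (4.14% to 5.01%) of TSS-proximal regions. Intragenic distal sites had a like share, 14.4% (11.9% to 17.5%). Of the 127 sites, 71 also held a YY1 core (55.9%, 47.2% to 64.2%) and 59 had a peak in all 4 libraries (46.5%, 38.0% to 55.1%). RUNX letters (TGTGGTT) were found in 17.5% (15.1% to 20.2%) of sites and 14.4% (12.8% to 16.1%) of side windows, and AP-1 letters (TGANTCA) in 18.5% (16.1% to 21.2%) and 14.9% (13.3% to 16.6%). GATA letters (AGATAA) were no more frequent in the sites, 23.3% (20.6% to 26.2%), than beside them, 23.9% (21.9% to 25.9%).

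The GC-rich motifs had smaller shares here than at promoters. SP/KLF letters (GGGCGG) were found in 236 sites (26.8%, 24.0% to 29.8%), against 8.92% of side windows and 75.4% of TSS-proximal regions. CTCF matches occurred in 128 sites (14.5%, 12.4% to 17.0%), 8.41% (7.20% to 9.80%) of side windows, 10.5% (8.32% to 13.2%) of intragenic distal sites and 22.4% of TSS-proximal regions. ETS letters (CCGGAAGT, which share GGAAGT with the PU.1 letters) were in 3.30% of sites, 0.511% of side windows and 9.63% of TSS-proximal regions. Over the YY1 core, CTCF and PU.1 together, 360 sites (40.9%) held none of the motifs, 284 (32.3%) held the YY1 core alone, 60 (6.82%) CTCF alone, 46 (5.23%) PU.1 alone and 9 (1.02%) all of them.

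**Figure D1:**
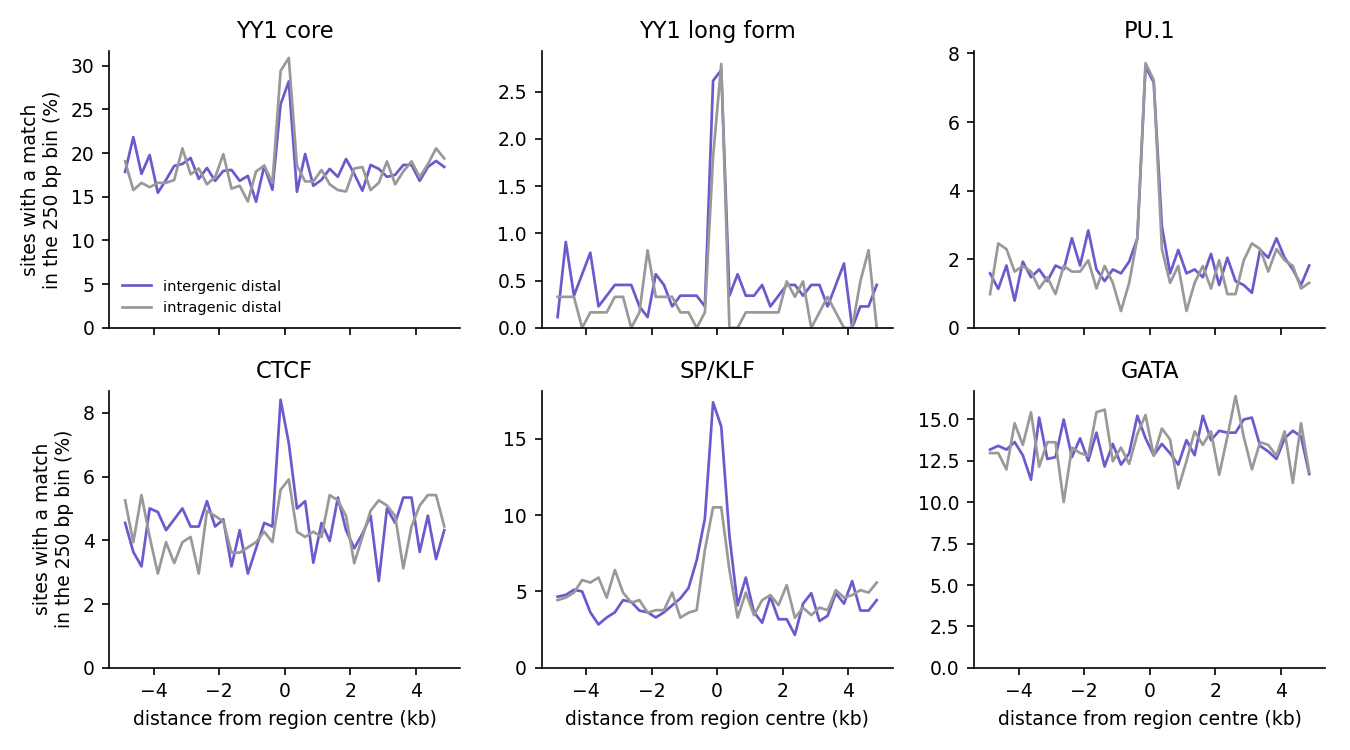
Share of sites (y axis, %) with at least 1 match to each motif in bins of 250 bp, by distance from the region centre (x axis, kb), for the 880 intergenic (violet) and 609 intragenic (grey) distal sites. The YY1 core rises to 28.2% in the bin just right of the centre and PU.1 to 7.61% just left of it, while GATA stays flat and CTCF and SP/KLF rise more at intergenic sites.

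The sites were poorer in GC than promoters and richer than their surroundings. Median GC content of the central windows was 49.2% (quartiles 44.8% and 54.4%), against 45.2% 5 kb away, 48.6% at intragenic distal sites and 64.6% at TSS-proximal regions. A window was called CpG-rich above 50% GC with a ratio of observed to expected CpG over 0.6, the usual marks of a CpG island. That held for 126 sites (14.3%), 1.88% of side windows, 5.09% of intragenic distal sites and 79.9% of TSS-proximal regions. Repeats were depleted, with a median of 11.2% soft-masked bases against 23.3% beside the sites.

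The CpG-rich sites differed from the rest in their motifs. Of the 126, 94 held SP/KLF letters (74.6%, 66.4% to 81.4%), 38 CTCF (30.2%, 22.8% to 38.7%), 29 the YY1 core (23.0%, 16.5% to 31.1%) and 5 PU.1 (3.97%, 1.71% to 8.95%). Of the 754 CpG-poor sites, 142 held SP/KLF letters (18.8%, 16.2% to 21.8%), 90 CTCF (11.9%, 9.81% to 14.4%), 375 the YY1 core (49.7%, 46.2% to 53.3%) and 122 PU.1 (16.2%, 13.7% to 19.0%). The long form showed no such split, at 4.76% and 5.17%. A peak in all 4 libraries was found at 86 CpG-rich sites (68.3%, 59.7% to 75.7%) and 297 CpG-poor sites (39.4%, 36.0% to 42.9%). In SP/KLF letters, in the YY1 core and in the share with a peak in all 4 libraries, the CpG-rich sites lay nearer to the TSS-proximal values (75.4%, 27.3% and 79.0%) than the CpG-poor sites did.

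Most sites lay over 10 kb from a protein-coding start. The nearest protein-coding transcript start was a median of 26.3 kb away (quartiles 11.8 and 58.2 kb, maximum 1649 kb), against 12.4 kb for intragenic distal sites. It was within 125 kb, the reach the study used to call enhancer sites, for 793 sites (90.1%). The sites were assigned to 712 different genes, and 543 (61.7%) lay upstream of the assigned gene. That gene had a region with peaks in at least 2 libraries within 3 kb of a start for 639 sites (72.6%), whereas 48.3% of all 20807 autosomal protein-coding genes had one. For intragenic distal sites the value was 76.4%.

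**Figure D2:**
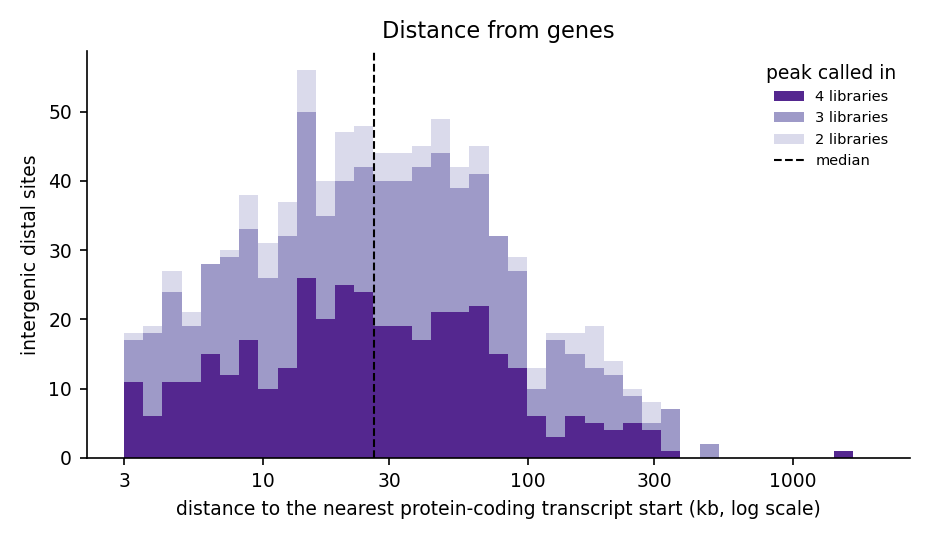
Number of intergenic distal sites (y axis) by distance to the nearest protein-coding transcript start (x axis, kb, log scale), shaded by the number of libraries with a peak. The dashed line marks the median of 26.3 kb, and 793 of 880 sites lie within 125 kb.

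Intergenic did not always mean unannotated. In all, 110 sites (12.5%) lay in the body of a noncoding gene or pseudogene, 72 of them in a lincRNA. Of the 110, 25 touched an exon and 85 lay in introns only. RefSeq places a transcript start within 3 kb of 143 sites (16.2%), 18 of them a curated one. This held for 35 of 126 CpG-rich sites (27.8%) and 108 of 754 CpG-poor sites (14.3%).

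Sites were spread over all 19 autosomes, from 0.216 per Mb on chromosome 8 to 0.700 per Mb on chromosome 19. Alone, with no other site within 25 kb, were 650 (73.9%), and 230 formed 99 groups. The largest group had 5 sites over 69.3 kb upstream of Zfp217, a zinc-finger protein of corepressor complexes. The next were 4 sites over 31.3 kb upstream of Ptma, which encodes the chromatin protein prothymosin alpha, and 4 over 13.6 kb downstream of Irf2bpl. Olfr161, Zfp978 with Zfp982, and Tcp10c with Tcte2 also had groups of 4, of lower mean width percentile.

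Few sites were made up mostly of repeated sequence. In 605 sites (68.8%) no 31-mer of the central window occurred elsewhere in the genome, against 77.3% of intragenic distal sites. Over 50% of 31-mers occurred elsewhere for 16 sites, against 2 intragenic ones. The longest region, 17477 bp assigned to Prl2c2, a placental hormone gene of a multicopy family, was among the 16. It was 89.0% soft-masked, with 51.3% of 31-mers elsewhere, and peaks of 771 and 758 bp in the replicate 1 libraries (WT, XistΔ/Δ) and 8644 and 4196 bp in the replicate 2 libraries. Widths there cannot be assigned to 1 copy.

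Presence of a peak at the sites differed most between the replicate 1 libraries. WT replicate 1 had a peak at 527 sites (59.9%) and XistΔ/Δ replicate 1 at 741 (84.2%). The replicate 2 libraries were closer, at 818 (93.0%) for WT and 846 (96.1%) for XistΔ/Δ. The fewest sites were thus marked in WT replicate 1, although it had more tags than XistΔ/Δ replicate 1. TSS-proximal regions showed no such gap within replicate 1, with 89.3% in WT and 90.1% in XistΔ/Δ, while intragenic distal sites did, with 55.2% and 81.1%.

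All 4 libraries had a peak at 383 sites (43.5%), 3 libraries at 406 (46.1%) and 2 at 91 (10.3%). At 290 sites WT replicate 1 was the only library without a peak, and at 111 XistΔ/Δ replicate 1 was. A peak in all 4 was found at 35.5% of intragenic distal sites and 79.0% of TSS-proximal regions. The sites with a peak in all 4 libraries were richer in CTCF matches, at 18.3% (14.7% to 22.5%), than those with a peak in 2, at 8.79% (4.52% to 16.4%), with overlapping intervals. Core shares were 48.0% (43.1% to 53.0%) and 40.7% (31.1% to 50.9%).

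**Figure D3:**
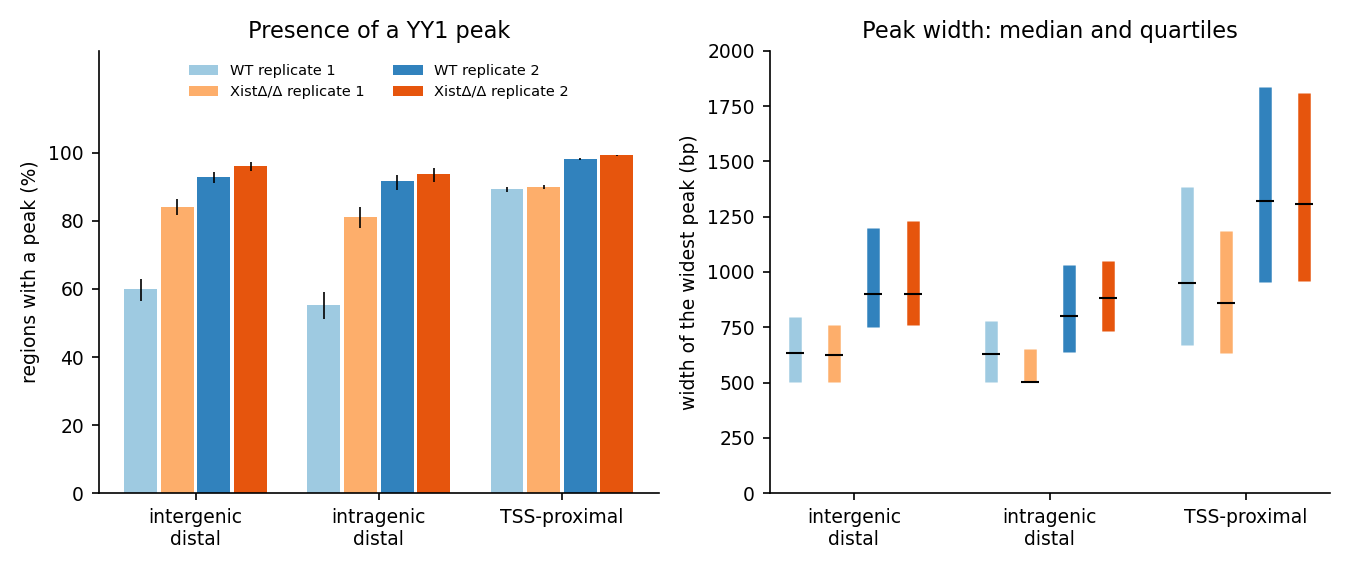
Left, share of regions with a peak (y axis, %) in each of the 4 libraries for intergenic distal, intragenic distal and TSS-proximal regions, with 95% Wilson intervals. Right, median (line) and quartiles (bar) of the width of the widest peak per region (y axis, bp). WT replicate 1 has a peak at 59.9% of intergenic sites against 84.2% in XistΔ/Δ replicate 1, and replicate 2 widths lie above replicate 1 widths.

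Within replicate 1, 353 sites had a peak in XistΔ/Δ and not in WT (40.1%), where 15.2% of all 10332 regions did. The reverse held for 139 (15.8%), where 11% of all regions did. Within replicate 2 the counts were 62 (7.05%, 2.68% of all regions) and 34 (3.86%, 1.3% of all regions). Intragenic distal sites had like shares, 44.8% and 18.9% in replicate 1 and 8.37% and 6.24% in replicate 2. Most of the peaks seen in only 1 of the replicate 1 libraries had the smallest width a peak could take, 501 bp: 241 of the 353 (68.3%) and 88 of the 139 (63.3%). Of all replicate 1 peaks at the sites, 48.9% in XistΔ/Δ and 38.1% in WT had that width.

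A list of equal length from each library, the first 9553 peaks in the deposited order, gave near-equal counts in replicate 2 and unequal ones in replicate 1. WT replicates 1 and 2 then had a peak at 59.9% and 60.9% of the sites, XistΔ/Δ replicate 2 at 60.6% and XistΔ/Δ replicate 1 at 74.5%. Over all 10332 regions the shares were 84.8%, 82.4%, 82.0% and 85.2% in the same order. In replicate 2, 77 sites (8.75%, with 4.79% of all regions) had a peak in XistΔ/Δ only and 80 (9.09%, with 5.11%) in WT only. In replicate 1 the counts were 291 (33.1%, with 12.8% of all regions) and 162 (18.4%, with 12.4%). At the sites XistΔ/Δ replicate 1 had the highest share of the 4 libraries, and XistΔ/Δ replicate 2 lay between both WT libraries. This comparison was chosen after the data were examined.

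Genotype-specific sites were few. A peak in both XistΔ/Δ and neither WT library was found at 43 sites (4.89%, with 1.62% of all regions), and the reverse at 13 (1.48%, with 0.61% of all regions). With lists of equal length the counts were 32 (3.64%, with 1.57% of all regions) and 25 (2.84%, with 1.82%). With the full lists, intragenic distal sites had shares of 5.91% and 3.12%. The rule itself rests on presence, so nothing is read from these shares.

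Peak width at the sites differed by replicate number far more than by genotype. Median widths were 635 bp in WT replicate 1 and 626 bp in XistΔ/Δ replicate 1, and 901.5 bp in WT replicate 2 and 898.5 bp in XistΔ/Δ replicate 2. The mean of the medians was 6 bp lower in XistΔ/Δ (difference -6 bp), far within the spread between replicates of each genotype. With 2 libraries per genotype, a two-sided exact permutation test cannot go below 0.333. At sites with a peak in all 4 libraries the medians were 675 and 652 bp in replicate 1 and 1070 and 1108 bp in replicate 2 (WT, XistΔ/Δ), and the difference of the means turned to 7.5 bp.

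Intergenic sites had wider peaks than intragenic ones in all 4 libraries. The median was higher by 8 bp in WT replicate 1, 100 bp in WT replicate 2, 125 bp in XistΔ/Δ replicate 1 and 14.5 bp in XistΔ/Δ replicate 2. In XistΔ/Δ replicate 1 the intragenic median was 501 bp, the smallest width a peak could take. At sites with a peak in all 4 libraries the differences were 23, 109, 20 and 92.5 bp in the same order. An exact sign test over 4 libraries cannot go below 0.125. Both kinds were narrower than TSS-proximal regions, whose medians ranged from 861.5 bp in XistΔ/Δ replicate 1 to 1322 bp in WT replicate 2.

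Because widths and depth both differed by replicate number, width was also ranked as a percentile among the regions with peaks in at least 2 libraries, with 0 for a region without a peak. Among sites with a peak in all 4 libraries WT had mean percentiles of 58.6 (replicate 1) and 55.5 (replicate 2), and XistΔ/Δ of 59.7 and 55.7. The difference, 0.627 percentile points higher in XistΔ/Δ, was smaller than the spread between replicates of each genotype. For intragenic sites WT had 55.6 and 48.5, and XistΔ/Δ had 55.1 and 47.7, so intergenic sites ranked higher in each of the 4 libraries.

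Sites of higher percentile in XistΔ/Δ for both replicate numbers, compared pair by pair with WT, were 284 (32.3%, Wilson 29.3% to 35.4%), and 25.9% of all regions did. Sites that ranked lower within both were 179 (20.3%, 17.8% to 23.1%), and 25.3% of all regions did. Intragenic distal sites had like shares, 33.7% higher and 21.2% lower. Of the 284 higher-ranked sites, 176 (62.0%) had no peak in WT replicate 1. Of the 179 lower-ranked sites, 74 (41.3%) had no peak in XistΔ/Δ replicate 1. A region without a peak took the lowest percentile, so these calls rest partly on presence, by which the sites were chosen. Ties matter too. Peaks of 501 bp shared percentile 42.1 in WT replicate 1 and 40.6 in XistΔ/Δ replicate 1. A site with 501 bp in both thus counted as lower within replicate 1 and could not be called higher. That width made up 38.1% of the WT and 48.9% of the XistΔ/Δ replicate 1 peaks at the sites. The Wilson intervals cover counting error only and are no test of genotype. Among sites with a peak in all 4 libraries the counts were near each other and near the background: 107 higher (27.9%, 23.7% to 32.6%, with 24.1% of all such regions) and 104 lower (27.2%, 22.9% to 31.8%, with 26.5%). By the order in the deposited lists, 309 of the 880 sites ranked higher (35.1%, with 27.7% of all regions) and 156 lower (17.7%, with 26% of all regions). With a peak in all 4 libraries those counts were 124 (32.4%, with 25.8% of all such regions) and 86 (22.5%, with 27.1%). By list order, 39.2% of all intragenic distal sites ranked higher and 18.7% lower. Motif shares of higher- and lower-ranked sites had overlapping intervals, with the YY1 core in 44.7% (39.0% to 50.5%) and 44.7% (37.6% to 52.0%), CTCF in 15.1% (11.4% to 19.8%) and 11.7% (7.80% to 17.3%) and PU.1 in 14.8% (11.1% to 19.4%) and 14.5% (10.1% to 20.4%).

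**Figure D4:**
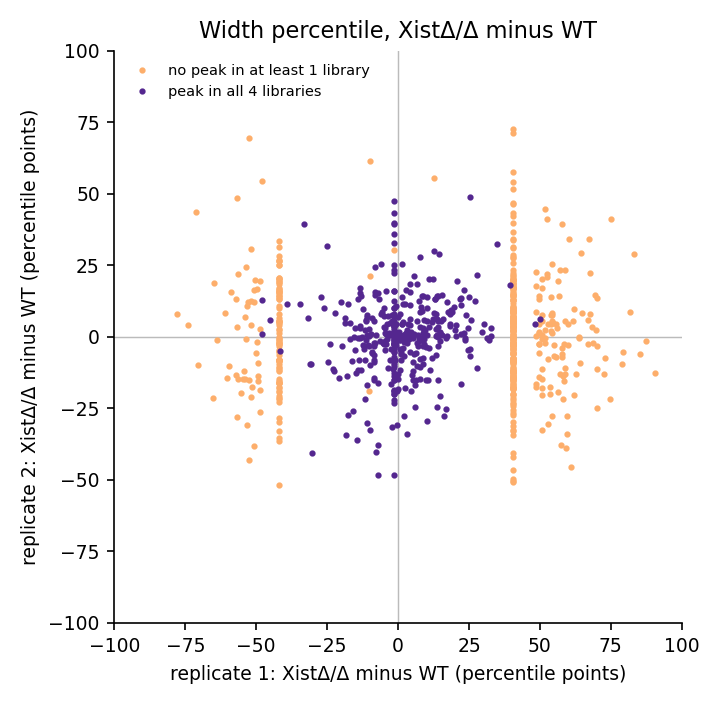
Difference in width percentile, XistΔ/Δ minus WT, in replicate 1 (x axis, percentile points) and replicate 2 (y axis, percentile points) for each of the 880 sites. The 383 sites with a peak in all 4 libraries (purple) surround 0, and the vertical bands near 40.6 and -42.1 points (orange) are sites where only 1 replicate 1 library had a peak, of 501 bp.

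The 10 sites with a peak in all 4 libraries and the highest mean width percentile had peaks of 1709 to 4500 bp. The first lay 3.31 kb from Mir142hg, the host gene of the blood-cell microRNA miR-142, and is assigned to Tspoap1 (chr11:87748107-87752268), 8.27 kb upstream of it. Here and below, the replicate 1 value is given first. The site had WT peaks of 3634 and 4001 bp beside XistΔ/Δ peaks of 2421 and 4053 bp. The lowest value was that of XistΔ/Δ replicate 1, at percentile 99.0 of its library.

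The next sites were 15.4 to 163.9 kb from the assigned gene. At Chd2, a chromatin remodeller (chr7:73616256-73619932, 74.4 kb upstream), there were WT peaks of 3103 and 3677 bp beside XistΔ/Δ peaks of 3002 and 3356 bp. At the zinc-finger gene Zfp239 (chr6:117878524-117882636, 15.4 kb away on the downstream side) there were WT peaks of 2835 and 4113 bp beside XistΔ/Δ peaks of 2816 and 3355 bp. An intron of the lincRNA Lncpint, assigned to Klf14 at 163.9 kb (chr6:31122952-31127510), had WT peaks of 2250 and 4500 bp beside XistΔ/Δ peaks of 2577 and 3654 bp. In these 3 sites the replicate 2 library of each genotype had the wider peak, and the genotypes overlapped.

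At Rbx1, the RING subunit of cullin ubiquitin ligases (chr15:81521687-81524975), there were WT peaks of 2739 and 2929 bp beside XistΔ/Δ peaks of 2518 and 3275 bp. At Zfp217 (chr2:170152691-170155940, 4.59 kb upstream) there were WT peaks of 2416 and 3110 bp beside XistΔ/Δ peaks of 2584 and 3136 bp. At Psma3, a subunit of the proteasome core (chr12:70967782-70970805), there were WT peaks of 2655 and 2879 bp beside XistΔ/Δ peaks of 2486 and 2942 bp. In these sites too the values of the genotypes overlapped. RefSeq places a start of Psma3 inside the Psma3 site and a start of Zfp217 at 1.01 kb from the Zfp217 site.

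Tex44, a testis-expressed gene (chr1:86440350-86443725), had WT peaks of 2528 and 3003 bp beside XistΔ/Δ peaks of 1847 and 3376 bp. Rnase12, of the ribonuclease A family (chr14:51061881-51065955), had WT peaks of 1709 and 3619 bp beside XistΔ/Δ peaks of 1837 and 4075 bp. Ptma (chr1:86486306-86489213, 37.5 kb upstream) had WT peaks of 2229 and 2908 bp beside XistΔ/Δ peaks of 2006 and 2306 bp. Of the 10 sites, 8 had a CpG ratio over 0.6, 5 a RefSeq transcript start within 3 kb, 3 a YY1 core, 2 a CTCF match and 0 a PU.1 match in the central window. The 8 with that ratio were not all CpG-rich as defined above. GC content was 38.2% at Zfp239, 37.6% at Zfp217, 35.4% at Psma3 and 49.2% at Rnase12, below the limit set for it. XistΔ/Δ was the wider at 3 of the 10 sites in replicate 1 and at 6 in replicate 2.

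**Figure D5:**
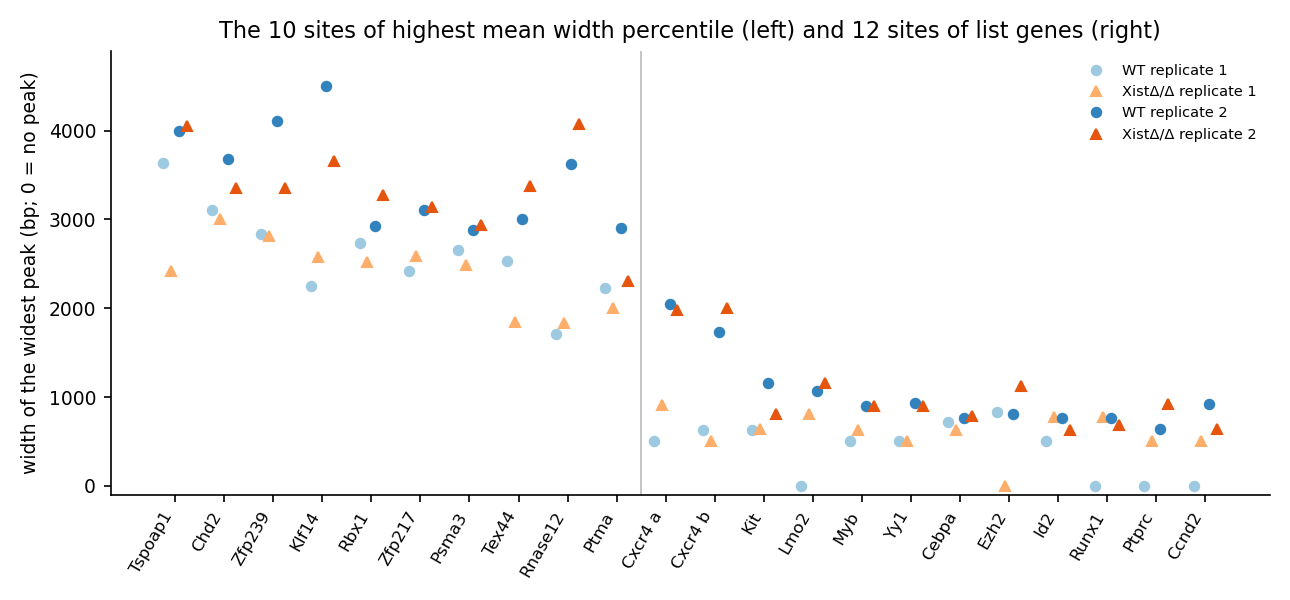
Width of the widest peak (y axis, bp, 0 where no peak was called) in each library at the 10 sites of highest mean width percentile (left of the line) and at 12 sites assigned to blood and YY1-related genes (right). Circles are WT and triangles XistΔ/Δ, and darker colours are replicate 2. The 10 sites on the left have peaks of 1709 to 4500 bp in all 4 libraries, and 4 sites on the right lack a peak in WT replicate 1.

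Lists of stem-cell factors, lineage factors, receptors, growth regulators and YY1 partners held 79 autosomal genes. Of these, 12 (15.2%) had at least 1 site, 15 sites in all, while 3.43% of 20780 autosomal protein-coding gene symbols had one. The counts were 3 of 23 stem-cell factors (4 sites), 2 of 19 lineage factors (2 sites), 4 of 13 receptors and surface proteins (6 sites), 1 of 13 growth regulators and 2 of 11 YY1 partners. The lists were chosen with earlier results of these data known, so the contrast is a description only. They were not matched to other genes for the length of the surrounding intergenic space, nor for YY1 peaks near a start. Of the 15 sites, 1 of the stem-cell factors and 2 of the receptors ranked higher in XistΔ/Δ, and 25.9% of all 10332 regions did. Among the YY1 partners 1 site, that of Yy1, ranked lower, and 25.3% of all regions did. Both replicate 1 peaks of the Yy1 site were 501 bp wide. That width took percentile 42.1 in WT and 40.6 in XistΔ/Δ, so equal widths counted as lower. Nothing is read from these counts.

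Among receptors and surface proteins, Cxcr4, the chemokine receptor that keeps stem cells in the marrow, had a pair of sites upstream. The farther one (chr1:128613697-128615845, 21.4 kb) had WT peaks of 501 and 2045 bp beside XistΔ/Δ peaks of 907 and 1981 bp. The nearer one (chr1:128607731-128609735, 15.4 kb) had WT peaks of 629 and 1731 bp beside XistΔ/Δ peaks of 501 and 2005 bp. In each the wide peaks were those of the deeper replicate 2 libraries, and each held a YY1 core. Downstream of Kit, the receptor for stem cell factor, a site at 95.1 kb (chr5:75744245-75745398) had WT peaks of 629 and 1154 bp beside XistΔ/Δ peaks of 642 and 807 bp. A site assigned to Ptprc, which encodes the leukocyte antigen CD45 (chr1:137806349-137807266, 308.2 kb), had no peak in WT replicate 1, 638 bp in WT replicate 2 and 501 and 918 bp in XistΔ/Δ.

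Among stem-cell factors, Lmo2, a bridging protein of the erythroid and stem cell complex, had a site 50.5 kb upstream (chr2:103906255-103907462) without a peak in WT replicate 1, with 1068 bp in WT replicate 2 and with 804 and 1160 bp in XistΔ/Δ. The Myb site (chr10:21221602-21222527, 60.6 kb upstream, in an intron of the lincRNA Gm33728) had WT peaks of 501 and 900 bp beside XistΔ/Δ peaks of 628 and 895 bp. The Runx1 site printed above (chr16:93031305-93032162, 205.2 kb upstream) had no peak in WT replicate 1, 764 bp in WT replicate 2 and 771 and 680 bp in XistΔ/Δ. At Lmo2 and Runx1 the other 3 libraries all had a peak. Of the 12 sites described from these lists, 4 lacked a peak in WT replicate 1 and 1 in XistΔ/Δ replicate 1.

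Lineage factors, growth regulators and YY1 partners had sites with peaks of 501 to 1127 bp. The Cebpa site (chr7:35150639-35151426, 31.3 kb downstream) had WT peaks of 713 and 767 bp beside XistΔ/Δ peaks of 626 and 781 bp. The Id2 site (chr12:25254662-25255462, 157.5 kb upstream) had WT peaks of 501 and 767 bp beside XistΔ/Δ peaks of 771 and 629 bp. A site 113.5 kb upstream of Ccnd2, which encodes a D-type cyclin (chr6:127265721-127266644), had no peak in WT replicate 1, 924 bp in WT replicate 2 and 501 and 641 bp in XistΔ/Δ. At each of these 3 sites the values of the genotypes overlapped.

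Upstream of Yy1 at 34.5 kb (chr12:108757503-108758467), the site with the CTCF match had WT peaks of 501 and 927 bp beside XistΔ/Δ peaks of 501 and 900 bp. The site upstream of Ezh2, the methyltransferase that deposits H3K27me3 (chr6:47650501-47651627, 55.2 kb), had 834 and 811 bp in WT, no peak in XistΔ/Δ replicate 1 and 1127 bp in XistΔ/Δ replicate 2. Both windows were CpG-rich. A RefSeq transcript model starts inside each site, while GENCODE M21 places none within 3 kb.

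The sites with the most YY1 cores had peaks of 631 to 1507 bp. The Adra2a site had WT peaks of 1032 and 1459 bp beside XistΔ/Δ peaks of 900 and 1492 bp, the Myoc site WT peaks of 908 and 1012 bp beside XistΔ/Δ peaks of 631 and 1047 bp. The Cdkn2aipnl site had WT peaks of 775 and 1205 bp beside XistΔ/Δ peaks of 1098 and 1507 bp, the wider peak being that of XistΔ/Δ within each replicate number. Central 31-mers found elsewhere were 6.60% and 6.81% at Adra2a and Myoc, and 0% at Cdkn2aipnl.

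The XistΔ/Δ-specific sites with the highest percentiles lay near Hmgcs1 and Tdpoz3. One was 13.9 kb upstream of Hmgcs1, an enzyme of cholesterol synthesis (chr13:119675564-119676497), with peaks of 929 and 910 bp in XistΔ/Δ replicates 1 and 2. A pair lay upstream of Tdpoz3 (chr3:93820565-93822022 and chr3:93813894-93815343), with 501 and 1458 bp and with 501 and 1428 bp. The WT-specific sites with the highest percentiles lay near Trim8, a ubiquitin ligase (chr19:46528202-46529110, 639 and 909 bp in WT replicates 1 and 2), Med13l, of the Mediator kinase module (chr5:118466084-118466866, 627 and 756 bp), and Fgfbp3 (chr19:36903917-36904683, 501 and 767 bp). Of the peaks at these 6 sites, the replicate 2 peaks at Tdpoz3 alone were wider than 1 kb.

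Higher-ranked sites were ordered by the smaller of their percentile differences in replicates 1 and 2. The first 3 were at Ptpn1, a tyrosine phosphatase of insulin and cytokine signalling (chr2:167924577-167926553), at the Hmgcs1 site and at Tmem189, followed by 9 sites tied at 40.6 points, of which Commd8 is described. At Ptpn1, WT had no peak in replicate 1 and 907 bp in replicate 2, and XistΔ/Δ had 629 and 1977 bp. At Tmem189, WT replicate 2 had a peak of 774 bp, beside XistΔ/Δ peaks of 630 and 1462 bp. At Commd8, WT replicate 2 had a peak of 794 bp, beside XistΔ/Δ peaks of 501 and 1612 bp. These 4 sites had no peak in WT replicate 1.

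In the same order, the first lower-ranked sites were the Trim8 site and sites at Calm5, Cpsf6 and Ripor2. At Calm5 widths were 501 and 1562 bp in WT, and XistΔ/Δ had no peak in replicate 1 and 759 bp in replicate 2. At Cpsf6, a subunit of the pre-mRNA cleavage factor, WT had 632 and 1034 bp and XistΔ/Δ no peak and 628 bp. At Ripor2 WT had 501 and 1628 bp and XistΔ/Δ no peak and 914 bp. All 4 had no peak in XistΔ/Δ replicate 1.

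Within the Zfp217 group, 4 of the 5 sites had a lower percentile in XistΔ/Δ than in WT in replicate 2, by 14.9 to 37.8 points at those 4. In replicate 1, 4 of the 5 had a higher percentile in XistΔ/Δ, by 1.52 to 57.5 points, so the replicate numbers went opposite ways at most of these sites. In the Ptma group the site 21.4 kb upstream (chr1:86503146-86505300) held 3 CTCF matches, where WT peaks were 988 and 1867 bp and XistΔ/Δ peaks 1201 and 2004 bp wide. Another at 16.7 kb (chr1:86509151-86509999) held 2, with WT peaks of 635 and 757 bp, no peak in XistΔ/Δ replicate 1 and 501 bp in XistΔ/Δ replicate 2.

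The sites farthest from a protein-coding start were assigned to Cntnap5b at 1649 kb, Arid1b, a subunit of the BAF remodelling complex, at 495.6 kb and Trps1, a GATA-type repressor, at 465.3 kb. The Cntnap5b site (chr1:101901889-101903572) lay 6.798 kb from the start of the lincRNA Gm28187. It had WT peaks of 501 and 778 bp beside XistΔ/Δ peaks of 501 and 1684 bp, with 66.4% of its window soft-masked and 46.0% of 31-mers found elsewhere. The Arid1b site had 773 and 773 bp in WT, no peak in XistΔ/Δ replicate 1 and 641 bp in XistΔ/Δ replicate 2. The Trps1 site had no peak in WT replicate 1, 754 bp in WT replicate 2 and 501 and 1008 bp in XistΔ/Δ.

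At the 3 kb limit, the regions just inside were the Vav1 site at 3.001 kb, the Egr1 site at 3.006 kb and a site assigned to Rap1b at 3.016 kb from a start. The Vav1 site (chr17:57274875-57276099) had no peak in WT replicate 1, 1200 bp in WT replicate 2 and 722 and 807 bp in XistΔ/Δ. The Vav-iCre transgene carries Vav1 sequence, and reads from it and from the endogenous gene cannot be told apart here. Just outside the limit were regions at Gm8091 (2997 bp), Sertad1 (2991 bp) and Gm5544 (2988 bp), with peak widths of 501 to 1143 bp where a peak was called.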

How the data were processed

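YY1 ChIP-seq of Lin- cells was analysed from the peak lists of 4 libraries. The study used MNase to cut the chromatin. Reads were trimmed with Trim Galore and aligned to mm10 with Bowtie2 (version 2.3.5.1), reads with mapping quality under 30 and duplicates were removed, and HOMER (4.9.1) findPeaks called peaks. Versions are those of the submitters' processing notes. Per the file headers, each library was called alone with peaks of 500 bp joined into regions, a false discovery rate of 0.001 and 4 fold over local density. The deposited lists give positions and a score, and the score is 1 for every peak. Peaks were therefore graded by width, with the order in the list as an alternative.

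The members and gene lists were chosen with earlier results of these data known. Peaks sharing at least 1 bp were merged, and a region's value in a library was the width of its widest peak. Percentiles were taken among regions with peaks in at least 2 libraries. Sites were named by set rules: the 10 of highest mean percentile, 12 of list genes, 3 per genotype among genotype-specific sites, 4 higher- and 4 lower-ranked, 3 farthest, 3 groups, 3 either side of the 3 kb limit, and 3 with most cores. A site was assigned to the gene with the nearest protein-coding start. Motifs were searched on both strands of the central 500 bp of GRCm38. CTCF and NRF1 letters and the CRE motif (TGACGTCA) were searched too, and NRF1 and CRE matched 2 and 14 sites. Python (3.11.15), pandas (2.3.3), pysam (0.24.0) and statsmodels (0.14.6, Wilson intervals) were used. The merging, ranking and motif search were tested on simulated data. Tags per peak were not used, so depth enters only through which peaks were called. The marker count for mature blood lineages is not reported here.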

Additional observations from a re-analysis of the deposited data

How the results depend on the processing

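The number of sites was 770 without those in any annotated gene body, 876 with merging at 100 bp overlap, 737 with RefSeq starts added and 864 without repeated sequence (the last 2 chosen after seeing the data). It moved to 383 with a peak in all 4 libraries and 505 beyond 10 kb from every start, and ranged from 527 to 857 with 1 library left out (527 without XistΔ/Δ replicate 1). The width difference between genotypes (-6 bp) was 7.5 bp at sites with a peak in all 4 libraries and ranged from -148.5 to 199.8 bp with 1 library left out, being positive without WT replicate 2 or XistΔ/Δ replicate 1. The percentile difference (0.627 points) ranged from -2.69, without XistΔ/Δ replicate 1, to 3.56, without WT replicate 1. With the replicate block, the pairing of libraries by their number, these differences were again -6 bp and 0.627 points. By construction the block leaves a mean difference unchanged, so this is no check of it. The labels do not say what a number marks. Over the 880 sites the deviations of same-numbered libraries correlated at -0.0330. The choice of sites left out any region where both same-numbered libraries lacked a peak, which shapes this correlation beforehand. It therefore cannot tell whether libraries belong together by number, and nothing is read from it about the pairing by number. The higher- and lower-ranked calls use this pairing and were not repeated without it. The cause of the changes between settings was not tested beyond the libraries named.

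Higher- and lower-ranked sites were 284 (32.3%) and 179 (20.3%) of the 880 sites. With a peak in all 4 libraries they were 107 (27.9%) and 104 (27.2%) of 383, so the shares changed as well as the counts. Within replicate 1 alone they were 535 (60.8%) and 345 (39.2%), and within replicate 2 alone 450 (51.1%) and 430 (48.9%). No share of all regions was computed for a single replicate number. By list order the higher- and lower-ranked sites were 309 and 156. The YY1 share was 5.11% for the long form, 36.2% in 300 bp windows (side windows 21.1%) and 60.9% in 1000 bp windows (57.0%). The CTCF share was 9.32% for a short form (AGGGGGC, side windows 5.80%), 9.89% in 300 bp windows (5.28%), 21.8% in 1000 bp windows (14.9%) and 18.3% with a peak in all 4 libraries (8.75%). The median distance was 12.3 kb to a start of any kind, and 9.90% of sites beyond 10 kb lay in noncoding or pseudogene bodies. The remaining values, median GC content and the intergenic against intragenic width difference (38 to 73.3 bp with 1 library left out) included, kept their direction. Depth differed together with replicate number, so their parts in presence and width cannot be told apart. With 2 libraries per genotype the exact permutation test could not go below 0.333.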
